A study of Homo sapiens with 21 samples.

Results

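The EGFR family was followed through 17 cancer cell lines as 10 genes, the 4 receptors EGFR, ERBB2, ERBB3 and ERBB4 and the 6 ligands TGFA, AREG, EREG, HBEGF, BTC and NRG1. The genes were chosen by name from the 53515 Ensembl genes counted in each library, and all 10 were matched by their identifiers. RNA was sequenced from 7 parental and 10 treatment-resistant lines in 21 libraries, all from cells in culture, and each resistant line had been grown for months in rising doses of the drug that its parental line was sensitive to. In lung, HCC4006ER resists erlotinib and derives from HCC4006P1, HCC4006GR resists gefitinib and derives from HCC4006P2, and HCC827GR resists gefitinib and derives from HCC827P. Both drugs inhibit the EGFR kinase, and HCC4006 and HCC827 are lung adenocarcinoma lines known for activating EGFR mutations. HCC4006P1 and HCC4006P2 are 2 stocks of the same line. The liver line HepG2 is the parent of HepG2S1 and HepG2S3, which resist sorafenib, and the pancreatic line PancVB is the parent of PancB1Q and PancB1V, which resist 5-fluorouracil. Of the ovarian lines, UWB1289 is the parent of U10 and U100, which resist olaparib, and IGROV-1 is the parent of IGROV-1 / CDDP, which resists cisplatin. Each line stands for 1 culture history and resistant lines of the same parent are compared with the same parental libraries.

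The 4 receptors are tyrosine kinases of the cell surface that signal as pairs. EGFR binds TGFA, AREG, EREG, HBEGF and BTC, ERBB4 binds HBEGF, EREG, BTC and NRG1, and ERBB3 binds NRG1. ERBB2 has no known soluble ligand and acts as the partner of the others, and ERBB3 has little kinase activity of its own but couples its partners strongly to PI3K. The ligands are made as membrane proteins and are cut free by the proteases ADAM10 and ADAM17. In epithelial tumours EGFR and ERBB2 are drug targets, and signalling through ERBB3 and NRG1 is a known way around EGFR inhibition.

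In GRCh37 coordinates, the receptor genes lie at chr7:55086710-55279321 (EGFR, ENSG00000146648, plus strand), chr17:37844167-37886679 (ERBB2, ENSG00000141736, plus), chr12:56470583-56497289 (ERBB3, ENSG00000065361, plus) and chr2:212240442-213403565 (ERBB4, ENSG00000178568, minus). Of the ligands, EREG (ENSG00000124882, plus), AREG (ENSG00000109321, plus) and BTC (ENSG00000174808, minus) are neighbours on chromosome 4, at chr4:75230862-75254466, chr4:75310853-75320722 and chr4:75669969-75719733. TGFA (ENSG00000163235, minus) lies at chr2:70674416-70781325, HBEGF (ENSG00000113070, minus) at chr5:139712428-139726188 and NRG1 (ENSG00000157168, plus) at chr8:31496738-32713184. The annotation has EGFR-AS1 within EGFR, TGFA-IT1 within TGFA, PGAP3 and MIEN1 overlapping ERBB2, and ENSG00000257411 overlapping the end of ERBB3. The library kit marks strand, but the strand setting of the counting is not given in the sources used here, so reads of such overlaps cannot be told apart.

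AREG, amphiregulin, could not be measured reliably. A second copy of the gene, AREGB, starts 170 kb away on chromosome 4, and 96.6% of the 940 stretches of 50 bases in the exons of AREG are also found in it. Shown is the 249-base coding exon of AREG at chr4:75312251-75312499, plus strand, which is identical in AREGB at chr4:75482006-75482254, with 0 differences, so that a read that lies within it cannot be assigned to either gene.

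AREG coding exon: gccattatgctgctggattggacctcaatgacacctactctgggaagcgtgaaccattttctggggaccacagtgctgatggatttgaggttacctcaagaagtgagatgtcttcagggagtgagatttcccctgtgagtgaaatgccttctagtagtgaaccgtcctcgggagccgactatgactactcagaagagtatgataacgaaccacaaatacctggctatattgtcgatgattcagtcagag

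AREG held between 0 and 31 counts in the 21 libraries, and its values below are given as uncertain.

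The promoters of EREG and TGFA are shown because these ligands were lower in the same pancreatic libraries in which ERBB3 was lower. ERBB4 was lower there too, and its promoter held no match. Each runs from 250 bases before to 50 bases after the gene's start and is taken from RefSeq on GRCh38.p14, in which 8 of the 10 genes were matched. The promoters were searched on both strands for the E-box CACCTG or CAGGTG, the letters bound by repressors of epithelial genes such as ZEB1 and SNAI1, and on the gene's strand for TATAAA, and the matches shown do not overlap. Capitals mark the matches. The EREG promoter lies at chr4:74364895-74365194, plus strand, and the TGFA promoter shown at chr2:70553397-70553696, minus strand.

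EREG promoter: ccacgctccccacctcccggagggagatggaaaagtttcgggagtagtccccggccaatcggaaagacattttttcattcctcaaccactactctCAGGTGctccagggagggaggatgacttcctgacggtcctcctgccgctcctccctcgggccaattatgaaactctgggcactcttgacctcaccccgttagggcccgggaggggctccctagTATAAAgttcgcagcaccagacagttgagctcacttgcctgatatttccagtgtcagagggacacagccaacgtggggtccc

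TGFA promoter: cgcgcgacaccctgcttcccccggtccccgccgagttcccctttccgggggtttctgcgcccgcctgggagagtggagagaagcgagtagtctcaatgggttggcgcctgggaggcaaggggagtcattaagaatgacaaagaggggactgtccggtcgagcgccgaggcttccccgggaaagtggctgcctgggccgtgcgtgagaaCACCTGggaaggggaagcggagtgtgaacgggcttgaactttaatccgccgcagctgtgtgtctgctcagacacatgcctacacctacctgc

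The EREG promoter held 1 E-box, at position -155 from the start, and 1 TATAAA, at -32. The TGFA promoter shown held 1 E-box, at -42. The promoter of another RefSeq start of TGFA, which lies upstream on the minus strand at chr2:70553777-70554076, held 0. The sequence shown is thus the TGFA promoter that held a match. Of the 10 promoters of the 8 genes, 5 held an E-box, those of AREG, BTC and HBEGF beside the EREG and TGFA promoters shown. AREG, BTC and HBEGF did not pass a 2-fold change in either pancreatic resistant line. ERBB3 and NRG1 had no matched promoter. An E-box was present in 20.6% of 34943 promoters of the same length and TATAAA in 7.35%, so these matches are common. Binding to them was not measured.

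Libraries held 9851195 to 36639473 counts on genes, with a median of 19498932 counts in the 9 parental and 19617483 in the 12 resistant libraries. Values are CPM, the count of a gene in every 1000000 counts on genes, and 3 counts, taken as the smallest detected number, equal 0.0819 CPM in the deepest and 0.305 CPM in the shallowest library. There were 2 libraries of HCC4006P1, HCC4006ER, HepG2 and HepG2S3, and 1 of each of the other 13 lines. The labels do not say that replicates came from separate cultures, so p-values measure the spread between libraries, which may be technical, and intervals for single libraries cover counting error only. Replicate 1 of HCC4006P1 has 1 count in all from chr7:30620149 onwards in alphabetical order of chromosomes, a stretch that holds 18.1% of the counts of replicate 2, so EGFR and NRG1 in HCC4006P1 are given from replicate 2 alone. The HCC4006P1 and HCC4006ER libraries also stand apart from their label. None of 5 lung adenocarcinoma markers reached 1 CPM in HCC4006P1 or HCC4006ER, where their summed level was 0.409 and 0.586 CPM and NKX2-1 and SFTA3 had no counts in HCC4006ER, whereas all 5 did in HCC4006P2 (3378 CPM) and HCC4006GR (318 CPM), 4 did in HCC827P (109 CPM) and 3 in HCC827GR (30.4 CPM). The summed level alone was not specific to lung. It was 140 CPM in UWB1289, where 1 of the 5 reached 1 CPM, and 639 CPM in IGROV-1 / CDDP, where 2 did. HCC4006P1 and HCC4006P2 differed past 2-fold in 18.1% of 15389 genes. Of 4 markers of blood and vessel cells, 0 to 2 reached 1 CPM per line, with a sum of 0.288 to 9.93 CPM, apart from 1554 CPM in HepG2, nearly all LYZ. In bulk RNA, fewer cells that express a gene cannot be told apart from less RNA per cell.

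EGFR was the leading receptor in 15 of the 17 lines when levels were taken per kilobase of transcript, with ERBB3 leading in HepG2 (55.8 CPM per kb) and ERBB2 in IGROV-1 / CDDP (46.4 CPM per kb). HCC827P had 7113 CPM of EGFR, which is 0.711% of all its counts and rank 4 among the genes of that library, and HCC827GR had 7069 CPM, with overlapping counting intervals. The next lines were HCC4006GR (1192 CPM), HCC4006P1 (1036 CPM) and HCC4006P2 (962 CPM), whose intervals did not overlap. U10 (595 CPM) and UWB1289 (574 CPM) could not be ordered by their intervals, and PancVB followed with 547 CPM. IGROV-1, at 456 CPM, lay between the libraries of HepG2S3, at 424 and 466 CPM. PancB1Q (380 CPM), HepG2S1 (372 CPM), PancB1V (365 CPM) and U100 (362 CPM) formed a run in which neighbours overlapped. The lowest levels were those of IGROV-1 / CDDP (223 CPM), HCC4006ER (194 and 201 CPM) and HepG2 (24.2 and 25.1 CPM). Across the 17 lines the highest EGFR level was 288 times the lowest.

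The genes next to EGFR were also high in both HCC827 lines. SEC61G, LANCL2 and VOPP1 flank EGFR on chromosome 7. SEC61G had 2374 CPM in HCC827P and 1655 CPM in HCC827GR, against 35.1 to 144 CPM in the other 15 lines. VOPP1 had 2129 and 1732 CPM, against 64.1 to 387 CPM, and LANCL2 had 600 and 581 CPM, against 18.9 to 65.9 CPM. DNA copy number was not analysed here, and its part in these levels was not tested. The 3 genes whose log2(CPM + 1) followed EGFR most closely over the 17 lines, among 10217 genes, were TTC19 (Pearson r = 0.893), CCT6A (0.879) and VOPP1 (0.877). CCT6A and VOPP1 lie on chromosome 7 and TTC19 on chromosome 17. The points of these correlations include resistant lines beside their own parents, and the 2 HCC827 lines lie far from the rest on EGFR.

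**Figure D1:**
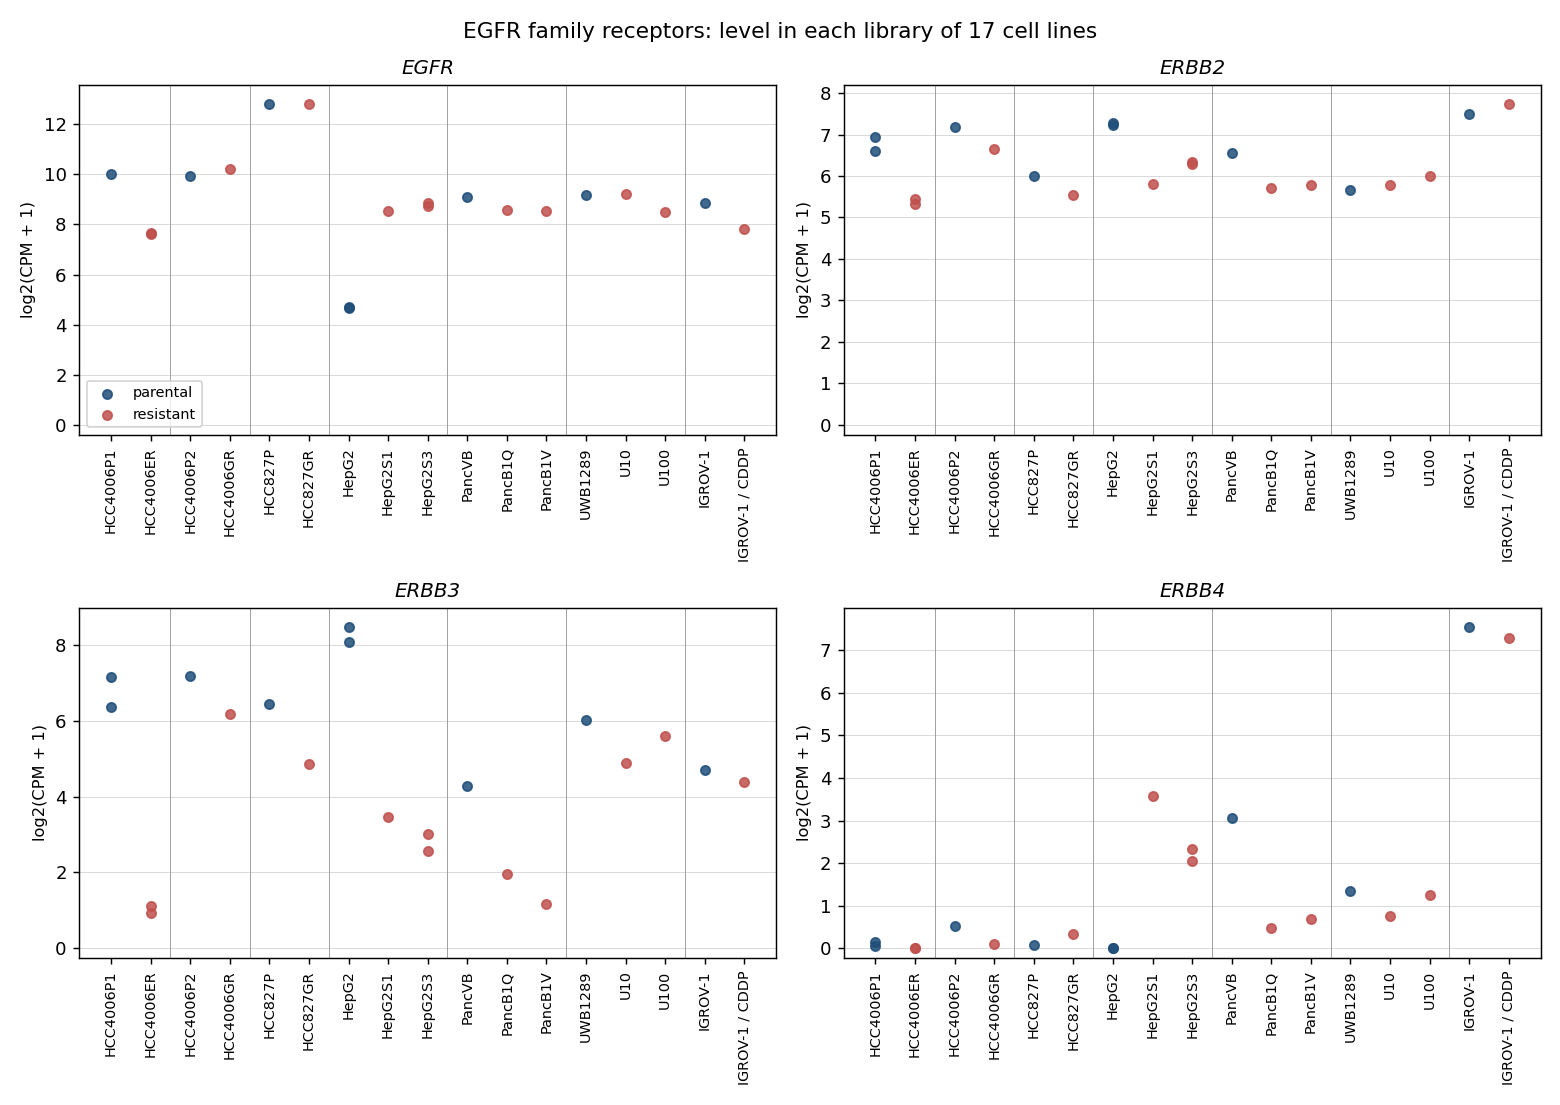
Level of the 4 receptors in each library, as log2(CPM + 1) on the vertical axis, by cell line on the horizontal axis. Blue points are libraries of parental and red points of resistant lines, and grey lines separate the parental lines and their descendants. EGFR is highest in HCC827P and HCC827GR and lowest in HepG2, each resistant line has less ERBB3 than its parent, and ERBB4 exceeds 10.9 CPM only in the cisplatin pair.

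Before resistance, EGFR was higher in the lung lines than in the other parental lines, but the test did not call it. Parental HCC4006 and HCC827P had a log2 difference of 3.55 in EGFR (SE 1.14) over HepG2, PancVB, UWB1289 and IGROV-1, with an adjusted p of 0.934 by edgeR's quasi-likelihood test over 17988 genes. That test called 0% of all genes, with 870 at an unadjusted p under 0.05, while DESeq2 called 404 genes, EGFR among them (adjusted p = 0.0313). Over all alternatives the adjusted p of EGFR lay between 0.0313 and 1.00, and the log2 difference was 1.46 without HCC827P. The other 9 genes were called by neither tool.

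In the erlotinib pair HCC4006P1 and HCC4006ER, nearly the whole family was lower in the resistant line while NRG1 was higher. EGFR, the target of the drug, had 1036 CPM in HCC4006P1 replicate 2 and 194 and 201 CPM in the replicates of HCC4006ER. This is a log2 fold change of -2.38 ± 0.04 (SD over 2 pairings of libraries), or 5.24-fold less in HCC4006ER. Both pairings share replicate 2 of HCC4006P1, so this SD holds only the spread between the HCC4006ER libraries. ERBB3 had 142 and 82.0 CPM in HCC4006P1 and 0.911 and 1.18 CPM in HCC4006ER, -5.78 ± 0.46 (SD, n = 4 pairings), or 107-fold less. ERBB2 had 121 and 96.5 CPM against 38.9 and 42.7 CPM. In each of the 3 receptors the parental and resistant libraries were separate. With at most 2 libraries a side this says little, and the share of all genes that separate in this way was not counted. ERBB4 was at 0 to 2 counts in all 4 libraries, so no change was detectable at this depth.

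Among the ligands of that pair, TGFA, an EGFR ligand, had 67.3 and 94.98 CPM in the parental and 6.78 and 6.93 CPM in the resistant line, -3.39 ± 0.28 (SD, n = 4 pairings). HBEGF, which binds EGFR and ERBB4, had 24.3 and 28.0 CPM against 9.36 and 10.3 CPM. EREG, at 1.62 and 1.03 CPM against 0.405 and 0.360 CPM, and BTC, at 3.02 and 1.64 CPM against 0.810 and 0.668 CPM, were low in both lines. AREG had 13 and 31 counts in HCC4006P1 and 0 in both libraries of HCC4006ER, at least 7.06-fold lower. NRG1, the ERBB3 and ERBB4 ligand, had 11.4 CPM in HCC4006P1 replicate 2 and 40.0 and 50.8 CPM in HCC4006ER, a log2 fold change of 1.90 ± 0.24 (SD, n = 2 pairings). HCC4006ER had the highest NRG1 level of the 17 lines, and its ERBB3 level was the lowest together with that of PancB1V, whose counting interval overlapped. TGFA led the ligands per kilobase in HCC4006P1 and HBEGF in HCC4006ER.

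Of the 10 genes, 7 passed a 2-fold change on the log2(CPM + 1) scale in HCC4006ER, 1 of them higher (NRG1), beside 20.8% of the 15389 genes with a mean of at least 1 CPM. This scale understates the change of low genes, and AREG, with a mean of 0.415 CPM over the lines, was the 1 gene of the 10 that did not reach that mean. The median over the 10 genes was -1.19, against 0.09 over all genes. By edgeR's quasi-likelihood test over the genes before the stop in HCC4006P1 replicate 1, ERBB2 (log2 fold change -1.51, SE 0.14, adjusted p = 0.000325), ERBB3 (-6.82, SE 0.34, adjusted p = 2.6e-05), TGFA (-3.67, SE 0.23, adjusted p = 5.9e-05) and HBEGF (-1.51, SE 0.17, adjusted p = 0.000711) fell. EREG (adjusted p = 0.00928), BTC (0.0106) and AREG (0.00962, its size set by the prior count) also fell, so that all 7 genes tested were called, where 49.0% of 12791 genes were. ERBB4 did not pass the filter on low counts. Without HCC4006ER replicate 2, EREG was not called (adjusted p = 0.0597).

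EGFR and NRG1 needed a fit with HCC4006P1 replicate 2 alone, in which 61.9% of 16597 genes were called, since its spread came from the 2 alike libraries of HCC4006ER. With the spread of the 4-library fit in its place, an alternative chosen after seeing the data, 31.9% of genes were called. The log2 fold change of EGFR was -2.57 (SE 0.15, adjusted p = 0.00187) and that of NRG1 was 1.81 (SE 0.21, adjusted p = 0.00764) with this spread, and 7 of the 9 genes tested were called. EREG (adjusted p = 0.0873) and BTC (0.0858) were then not called.

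**Figure D2:**
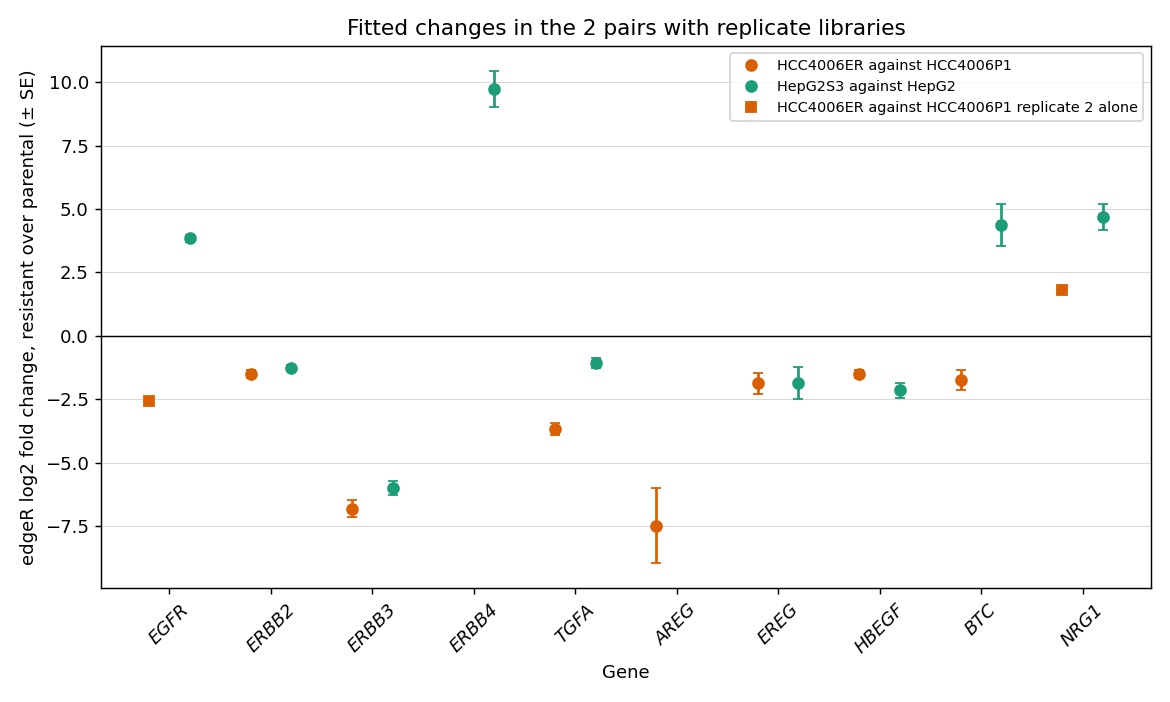
Log2 fold change fitted by edgeR, resistant over parental, with its standard error as a bar, for the genes that passed the filter in the 2 pairs with replicate libraries. Circles are fits with 2 libraries on each side and orange squares the fit with HCC4006P1 replicate 2 alone. EGFR lies at -2.57 in HCC4006ER and at 3.86 in HepG2S3, while ERBB3 lies at -6.82 and -6.01 and NRG1 at 1.81 and 4.68. AREG in HCC4006ER and ERBB4 in HepG2S3 are set against a group at 0, so their size depends on the prior count.

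In the gefitinib pair from the other stock of HCC4006, EGFR was not lower in the resistant line. EGFR had 962 CPM in HCC4006P2 and 1192 CPM in HCC4006GR, a log2 fold change of 0.31 with a 95% counting interval of 0.28 to 0.34. ERBB3 had 145 CPM in the parental and 72.4 CPM in the resistant line (-0.99, interval -1.1 to -0.89), and ERBB2 had 143 and 99.0 CPM (-0.53). NRG1 was again higher in the resistant line, 1.47 CPM against 13.0 CPM, a log2 fold change of 2.51 (interval 2.06 to 2.90) that rests on 20 parental and 197 resistant counts. HBEGF had 5.36 and 16.3 CPM (1.44, interval 1.11 to 1.76). TGFA, at 75.1 and 81.1 CPM, led the ligands in both lines, and BTC (2.35 and 4.24 CPM) and EREG (2.42 and 1.65 CPM) were low. Past 2-fold were 2 of the 10 genes, HBEGF and NRG1, beside 13.8% of all genes, and this pair has no replicate check.

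In HCC827 the receptor with the largest difference was ERBB3. EGFR had 7113 CPM in HCC827P and 7069 CPM in HCC827GR, so that the log2 fold change was -0.01 (interval by counting error -0.02 to 0.00). ERBB3 had 85.9 and 27.9 CPM (-1.59, interval -1.74 to -1.44), or 3.08-fold less in the resistant line, and ERBB2 had 63.0 and 45.7 CPM (-0.45). EREG, the leading ligand of both lines, had 434 and 560 CPM, more than in any of the other 15 lines. TGFA had 34.6 and 59.1 CPM (0.76, interval 0.61 to 0.90), BTC 16.2 and 13.4 CPM, NRG1 26.1 and 31.3 CPM (0.25, interval 0.07 to 0.43) and HBEGF 4.44 and 7.46 CPM. Only ERBB3 of the 10 genes passed 2-fold, beside 15.9% of all genes.

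Set side by side, the 3 EGFR inhibitor pairs differed in EGFR itself and shared less ERBB3 and ERBB2 in the resistant line. This was not particular to them, since ERBB3 and ERBB2 were also lower in the resistant HepG2 and pancreatic lines. In the ovarian resistant lines ERBB2 was slightly higher. NRG1 was above 0 in all 3 EGFR inhibitor pairs, at 1.90, 2.51 and 0.25. Per kilobase, EGFR was 5.25 times ERBB3 in HCC4006P1 and 107 times in HCC4006ER, 3.76 times in HCC4006P2 and 9.33 times in HCC4006GR, and 46.9 times in HCC827P and 144 times in HCC827GR. Over these 3 pairs, edgeR gave a log2 fold change of -0.79 for ERBB2 (SE 0.28, adjusted p = 0.462), 1.71 for NRG1 (SE 0.64, adjusted p = 0.473), -2.63 for ERBB3 (SE 1.26, adjusted p = 0.532) and -0.69 for EGFR (SE 0.69, adjusted p = 0.749). The test called 0% of 16665 genes, with 1728 at an unadjusted p under 0.05, ERBB2 and NRG1 among them, and DESeq2 called 745, none of the 10 among them. Without the HCC4006P1 pair, which lacks the lung markers, the values over the other 2 pairs were 0.15 for EGFR, -1.31 for ERBB3, -0.50 for ERBB2 and 1.59 for NRG1, so the sign of EGFR rests on that pair.

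**Figure D3:**
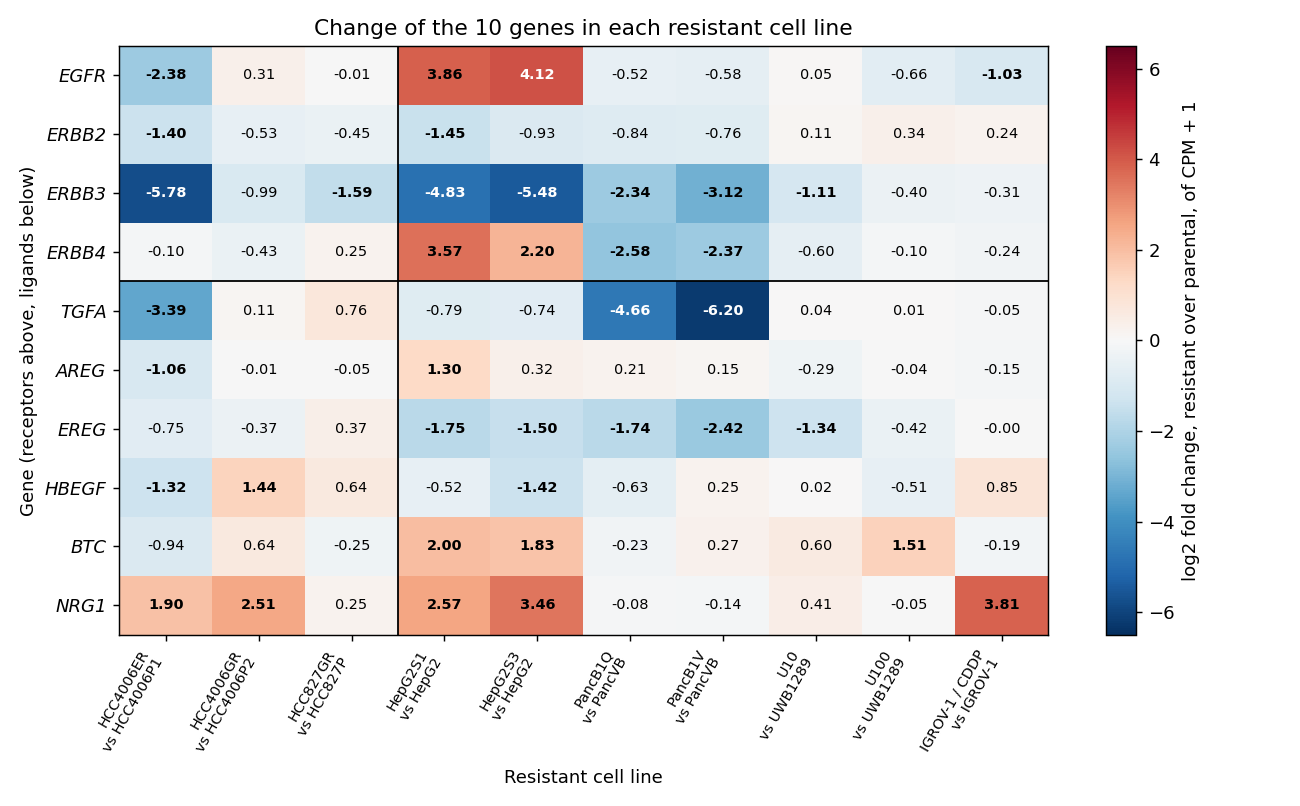
Log2 fold change of CPM + 1 of the 10 genes in each resistant line over its parental line, as numbers on a colour scale from blue (lower) to red (higher), with values past 2-fold in bold. Receptors are above the horizontal line and ligands below it, and the 3 lung pairs are left of the vertical line. ERBB3 is below 0 in every column, from -5.78 in HCC4006ER to -0.31 in IGROV-1 / CDDP, while EGFR ranges from -2.38 in HCC4006ER to 4.12 in HepG2S3.

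In the sorafenib-resistant lines EGFR was higher than in the parental line. Low-coverage genome sequencing in the study found only small parental-to-resistant differences in copy number, except in the pairs derived from HepG2. The part of such differences in the levels of these lines was not tested. HepG2 had 24.2 and 25.1 CPM of EGFR, HepG2S1 372 CPM and HepG2S3 424 and 466 CPM, so that both resistant lines lay far above the parental libraries. The log2 fold change was 3.86 ± 0.03 (SD, n = 2 pairings) in HepG2S1 and 4.12 ± 0.08 (SD, n = 4 pairings) in HepG2S3, or 15.1-fold and 18.0-fold more. The pairings of HepG2S1 share its only library, so that SD holds only the spread between the HepG2 libraries. ERBB3 had 355 and 272 CPM in HepG2, the highest of the 17 lines, 10.0 CPM in HepG2S1 and 7.15 and 4.96 CPM in HepG2S3. Per kilobase, EGFR was 0.0446 times ERBB3 in HepG2, 21.0 times in HepG2S1 and 41.6 times in HepG2S3. ERBB2 had 149 and 153 CPM in HepG2, 54.6 CPM in HepG2S1 and 77.4 and 80.2 CPM in HepG2S3. ERBB4 had no count in either HepG2 library and 10.9 CPM in HepG2S1 and 3.16 and 4.01 CPM in HepG2S3, at least 129-fold and 42.7-fold higher against a floor of 3 counts per library.

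NRG1, which binds the 2 receptors that moved in opposite directions, had 0.218 and 0.746 CPM in HepG2, 7.82 CPM in HepG2S1 and 13.8 and 16.9 CPM in HepG2S3. BTC, an EGFR and ERBB4 ligand, had 0 and 0.230 CPM in HepG2, 3.45 CPM in HepG2S1 and 3.06 and 2.87 CPM in HepG2S3. TGFA had 40.0 and 54.2 CPM in HepG2, 26.8 CPM in HepG2S1 and 26.8 and 28.9 CPM in HepG2S3. HBEGF had 7.40 and 5.97 CPM in HepG2, 4.36 CPM in HepG2S1 and 1.53 and 2.22 CPM in HepG2S3. TGFA was the leading ligand per kilobase in HepG2 replicate 1, HepG2S1 and HepG2S3, and EREG in HepG2 replicate 2. The HepG2 replicates disagreed on EREG by over 4-fold, with 22.5 CPM in replicate 1 and 91.1 CPM in replicate 2, against 16.2 CPM in HepG2S1 and 18.7 and 20.1 CPM in HepG2S3. Its log2 fold change was -1.75 ± 1.39 (SD, n = 2 pairings) in HepG2S1 and -1.50 ± 1.14 (SD, n = 4 pairings) in HepG2S3, and -0.45 and -0.20 without HepG2 replicate 2.

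Of the 10 genes, 8 passed 2-fold in HepG2S1 (EGFR, ERBB4, AREG, BTC and NRG1 higher, ERBB2, ERBB3 and EREG lower), beside 38.6% of all genes, and 7 in HepG2S3 (EGFR, ERBB4, BTC and NRG1 higher, ERBB3, EREG and HBEGF lower), beside 39.0%. Both counts use the same HepG2 libraries. EREG fell short of 2-fold in both lines without HepG2 replicate 2, and ERBB2, at -0.93 in HepG2S3, lay just short of it. The place of AREG in the first count is not secure either, since its copy AREGB had 40 and 63 counts in HepG2 and 0 in HepG2S1. With AREG and AREGB summed, an alternative chosen after seeing the data, the levels were 1.48 CPM in HepG2 and 1.52 CPM in HepG2S1, and 7 genes passed. The liver markers moved with these lines, since all 6 were above 1 CPM in HepG2 (29600 CPM in sum), none in HepG2S1 (1.12 CPM, with ALB, AFP, APOA1 and TTR at 0) and 3 in HepG2S3 (26.9 CPM), and their part in the results was not tested. Scaling by TMM in place of the total lowered the median log2 fold change of all genes by 0.26 in HepG2S1 and 0.20 in HepG2S3, and the share of 2-fold changes that were higher went from 60.2% to 43.1% and from 63.0% to 51.9%. All 9 genes tested were called by edgeR in HepG2S3, where 63.5% of 16929 genes were. EGFR (log2 fold change 3.86, SE 0.14, adjusted p = 4.4e-05), NRG1 (4.68, SE 0.51, adjusted p = 0.00100), BTC (4.37, SE 0.83, adjusted p = 0.00666) and ERBB4 (adjusted p = 0.000685, its size set by the prior count) rose. ERBB3 (-6.01, SE 0.29, adjusted p = 8.1e-05), HBEGF (-2.15, SE 0.29, adjusted p = 0.00209), ERBB2 (-1.25, SE 0.12, adjusted p = 0.000643), TGFA (-1.07, SE 0.19, adjusted p = 0.00498) and EREG (-1.86, SE 0.63, adjusted p = 0.0471) fell. AREG did not pass the filter on low counts. Without HepG2S3 replicate 1, TGFA (adjusted p = 0.0533) and EREG (0.0976) were not called, nor was EREG without HepG2S3 replicate 2 (0.0902). The log2 fold change of BTC rests on 0 and 8 counts in the HepG2 replicates and was 3.36 without replicate 1, with no count left in the parental group without replicate 2.

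In the 5-fluorouracil pairs TGFA differed the most, and ERBB3, ERBB4 and EREG were lower as well. PancVB had the highest TGFA level of the 17 lines, 135 CPM, against 4.38 CPM in PancB1Q and 0.846 CPM in PancB1V, log2 fold changes of -4.66 (counting interval -4.87 to -4.44) and -6.20 (-6.45 to -5.88). ERBB3 had 18.6 CPM in PancVB, 2.87 CPM in PancB1Q and 1.25 CPM in PancB1V (-2.34, interval -2.60 to -2.07, and -3.12, interval -3.41 to -2.79). EREG had 32.8, 9.10 and 5.32 CPM and ERBB4 7.27, 0.385 and 0.604 CPM in the same order. Other members were nearer to the parental level. EGFR had 547, 380 and 365 CPM, ERBB2 92.3, 51.3 and 53.9 CPM, NRG1 33.7, 31.7 and 30.5 CPM, and HBEGF 46.4, 29.6 and 55.2 CPM. TGFA led the ligands per kilobase in PancVB and HBEGF in both resistant lines. ERBB3, ERBB4, TGFA and EREG, 4 of the 10 genes, were lower past 2-fold in PancB1Q, beside 13.6% of all genes, and in PancB1V, beside 14.3%. Both lines were compared with the same PancVB library, without a replicate, and with TMM scaling the share of 2-fold changes that were higher in PancB1Q went from 39.9% to 55.0% over all genes. Of 5 markers of pancreas duct, 3 were above 1 CPM in PancVB, 4 in PancB1Q and 3 in PancB1V, and their sum was 776 CPM in PancVB, 280.4 CPM in PancB1Q and 236 CPM in PancB1V. The part of this difference in the results was not tested. The list was not specific to pancreas, since 4 of the 5 were above 1 CPM in HCC4006P1, with a sum of 2019 CPM.

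**Figure D4:**
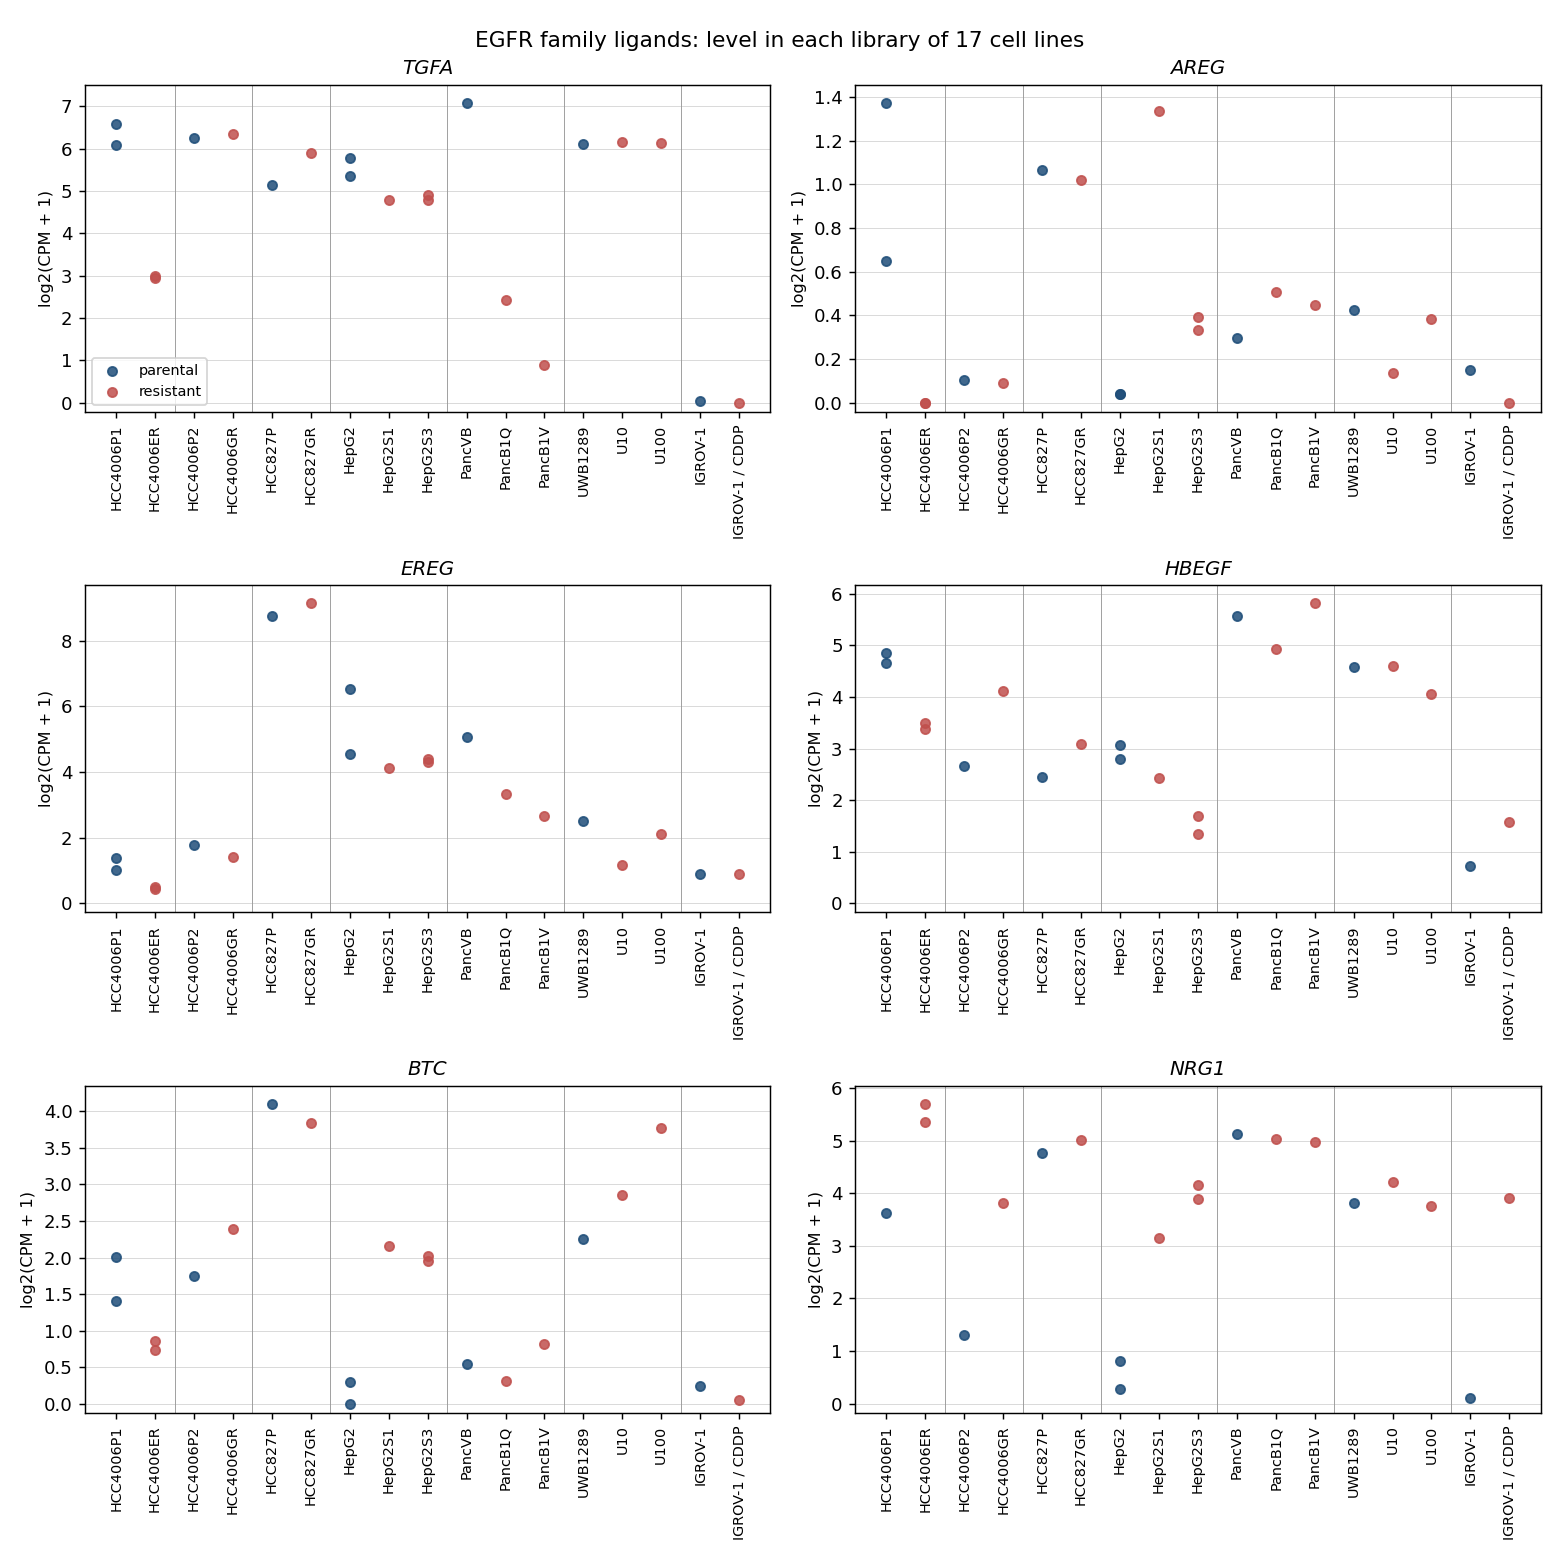
Level of the 6 ligands in each library, as log2(CPM + 1) on the vertical axis, by cell line on the horizontal axis, with parental libraries in blue and resistant ones in red. EREG is highest in HCC827P and HCC827GR, TGFA is near 0 in IGROV-1 and IGROV-1 / CDDP and below 1 CPM in PancB1V, and AREG does not exceed 1.59 CPM in any library. NRG1 is highest in HCC4006ER.

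The ovarian pairs had the smallest shares of genes past 2-fold among the 10 pairs. UWB1289 had 574 CPM of EGFR, U10 595 CPM and U100 362 CPM. ERBB3 had 63.8 CPM in UWB1289, 29.0 CPM in U10 (-1.11, counting interval -1.30 to -0.93) and 48.1 CPM in U100 (-0.40, interval -0.55 to -0.25). TGFA was close to level, at 68.5, 70.3 and 69.0 CPM. NRG1 had 13.0, 17.6 and 12.5 CPM, with a log2 fold change of 0.41 in U10 (interval 0.12 to 0.71). BTC had 3.79 CPM in UWB1289, 6.24 CPM in U10 and 12.7 CPM in U100, a log2 fold change of 1.51 (interval 1.11 to 1.90) in the latter. EREG had 4.73, 1.27 and 3.28 CPM. Past 2-fold were ERBB3 and EREG, both lower, in U10, beside 10.3% of all genes, and BTC, higher, in U100, beside 7.41%. Of 5 ovary markers, 3 were above 1 CPM in each of these lines, and 2 in either line of the cisplatin pair. The list was not specific to ovary, since 4 were above 1 CPM in PancVB and 3 in HCC827P. Their sum was 670 CPM in HCC827P, between 514 CPM in UWB1289 and 1119 CPM in IGROV-1.

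IGROV-1 had a receptor and ligand profile of its own. ERBB4 had 185 CPM in the parental and 156 CPM in the resistant line, whereas no other line exceeded 10.9 CPM. ERBB2 had 179 and 211 CPM, the highest levels of the 17 lines. EGFR had 456 CPM before and 223 CPM after resistance (-1.03), and ERBB3 24.9 and 19.9 CPM (-0.31, counting interval -0.47 to -0.15). TGFA had 1 count in the parental and 0 in the resistant library, and none of the 6 ligands passed 1 CPM in IGROV-1. NRG4, a further ERBB4 ligand named here after its values were seen, had 11.6 CPM in the parental and 5.54 CPM in the resistant library. In IGROV-1 / CDDP, NRG1 had 14.1 CPM from 356 counts against 2 counts in IGROV-1, a ratio of 194 with a counting interval of 48.2 to 777, and HBEGF had 1.98 CPM against 0.655 CPM. Past 2-fold were NRG1, higher, and EGFR, lower, beside 11.1% of all genes. The EGFR value fell short of 2-fold with TMM scaling, at -0.94.

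ERBB3 was lower in the resistant lines of all 7 parental lines when each parental line was given 1 value, the mean over its resistant lines, with a median of -1.59. This held for 122 of 15389 genes (0.793%), and 8 genes (0.0520%), ERBB3 among them, were also 2-fold lower in at least 4 of the 7. NRG1 was 2-fold higher in 4 of the 7 (HCC4006P1, HCC4006P2, HepG2 and IGROV-1) and 2-fold lower in none, as were 156 genes (1.01%). Both patterns follow the values of ERBB3 and NRG1 themselves, so these shares describe the genes and test nothing. HCC4006P1 and HCC4006P2 are stocks of the same line, so the 7 are not all independent. EGFR had 5 values below and 2 above 0, EREG 6 below and 1 above, and ERBB2 5 below and 2 above. Pooled over all cell lines without regard to pairing, parental and resistant libraries overlapped in their levels of each of the 10 genes. There were 12 resistant libraries and 9 parental ones, or 8 for EGFR and NRG1. The share of all genes that overlap in this way was not counted, and the overlap does not bear on the paired changes. ERBB3 ranged from 18.6 to 355 CPM with a median of 85.9 CPM in parental libraries and from 0.911 to 72.4 CPM with a median of 8.60 CPM in resistant ones.

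**Figure D5:**
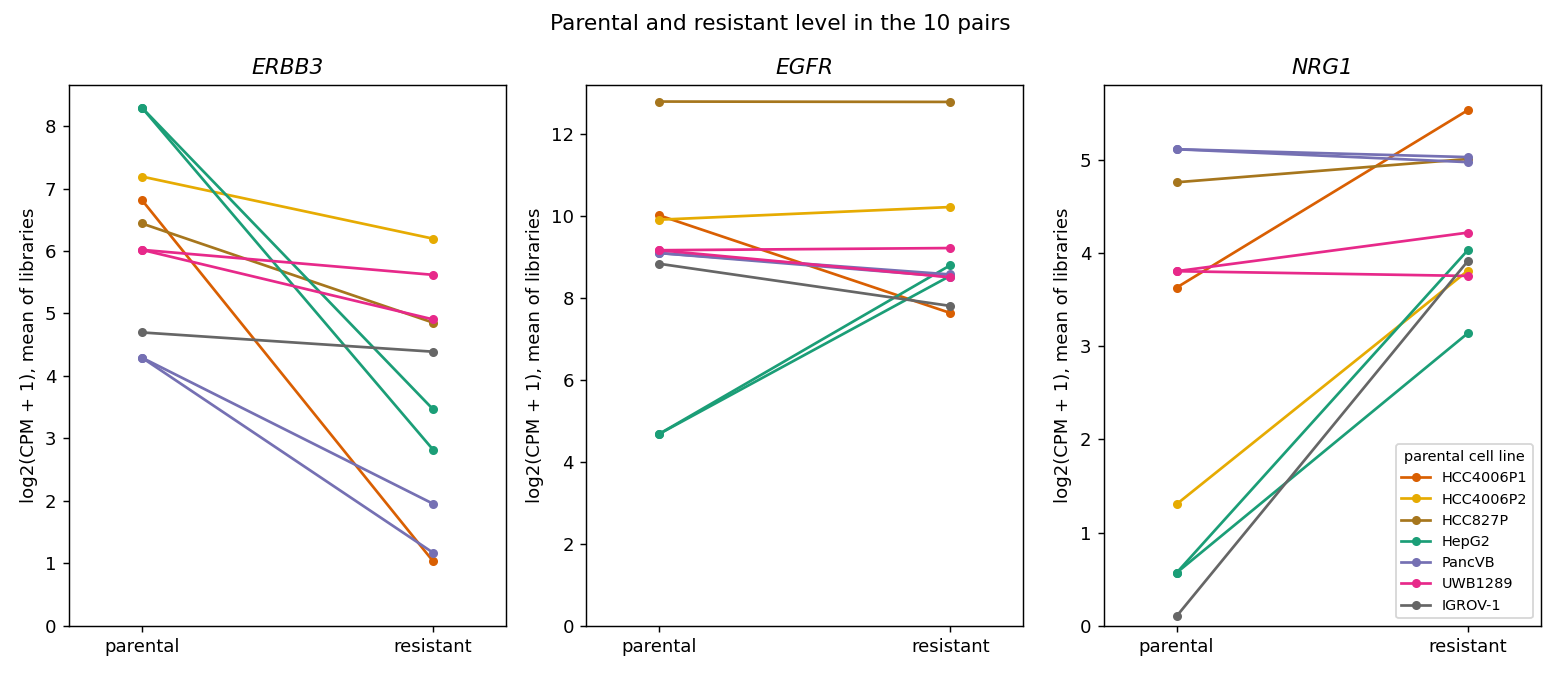
Level of ERBB3, EGFR and NRG1 as log2(CPM + 1), mean of libraries, on the vertical axis, in the parental line and its resistant lines, joined by a line for each of the 10 pairs and coloured by parental line. Every ERBB3 line slopes down, the steepest from HCC4006P1 and HepG2. EGFR rises from 24.7 CPM in HepG2 and is lowest among resistant lines in HCC4006ER, and the steep NRG1 lines start from 4 parental lines at or under 11.4 CPM.

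The test over the 7 parental lines, with each as a block and HCC4006P1 and HCC4006P2 apart, called 0% of 19829 genes. ERBB3 had a log2 fold change of -2.43 (SE 0.90), EREG of -0.96 (SE 0.34), NRG1 of 2.14 (SE 0.95), ERBB2 of -0.55 (SE 0.24) and EGFR of -0.16 (SE 0.62), each with an adjusted p between 0.994 and 0.998 by edgeR. At an unadjusted p under 0.05 there were 920 genes, ERBB3 and EREG among them, and DESeq2 called 113, with ERBB3 at an adjusted p of 0.0547, the lowest over its alternatives. The sign of EGFR turned without HCC4006P1 (0.22) or IGROV-1 (0.01). The difference in change between the 3 lung pairs and the other 4 parental lines was also called in 0% of these genes (1258 at an unadjusted p under 0.05, 151 by DESeq2). It was -0.97 for EGFR (SE 1.30, adjusted p = 0.903), -0.39 for ERBB3 (SE 1.98, adjusted p = 0.986) and -0.94 for NRG1 (SE 2.03, adjusted p = 0.945), so no difference between the EGFR inhibitor pairs and the others was shown, and standard errors of this size leave changes of several log2 units undetected.

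Around the receptors, 30 further pathway genes were followed in the 2 pairs with replicates, in which 49.0% (HCC4006ER) and 63.5% (HepG2S3) of all genes were called. Of the other ligands, 1 rose and 2 fell of 4 tested in HCC4006ER, EGF with a log2 fold change of -3.39 (SE 0.36, edgeR adjusted p = 0.000513) and EPGN from 51 counts to 0, while in HepG2S3 all 3 tested rose, EGF by 2.97 (SE 0.60, adjusted p = 0.00837) and EPGN from 0 to 192 counts. Of the shedding proteases and their partners, 2 of 5 fell in HCC4006ER, ADAM10 (-0.81) and ADAM17 (-0.66), and 3 of 5 fell in HepG2S3, RHBDF2 (-1.96) and ADAM10 (-0.70) by the most, both shares lying below those over all genes. The attenuators of the receptors had 3 rising and 3 falling of 10 in HCC4006ER and 2 falling of 10 in HepG2S3, a share somewhat above that over all genes in the former and below it in the latter. LRIG1, which promotes the degradation of EGFR family receptors, rose by 4.52 in HCC4006ER (SE 0.23, adjusted p = 2.7e-05) and fell by 3.14 in HepG2S3 (SE 0.25, adjusted p = 0.000362). ERRFI1, which binds and inhibits the kinase of EGFR, fell in both (-1.45, adjusted p = 0.000202, and -3.82, adjusted p = 0.000101).

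Of the adaptors, 1 rose and 4 fell of 10 in HCC4006ER, and 1 rose and 6 fell in HepG2S3, shares near those over all genes. GRB7, an adaptor that binds ERBB2 and ERBB3 and whose gene lies next to ERBB2, had a log2 fold change of -2.93 in HCC4006ER (SE 0.25, adjusted p = 0.000196) and of -5.15 in HepG2S3 (SE 0.24, adjusted p = 7.6e-05). PLCG1 rose by 1.60 in HCC4006ER and fell by 1.61 in HepG2S3. Over the 17 lines, GRB7 was also the gene whose level followed ERBB3 most closely (Pearson r = 0.826), before TTC9 (0.823) and LRRC8B (0.818). Within the family, ERBB3 had r = 0.555 with TGFA (rank 290 of 10217 genes), 0.491 with ERBB2, 0.176 with EREG and 0.110 with EGFR. It had r = -0.141 with ERBB4, -0.147 with HBEGF and -0.566 with NRG1 (rank 9712). Of the 4 neighbours of ERBB2, 1 fell in HCC4006ER (GRB7) and 2 in HepG2S3 (GRB7 and STARD3, -0.56), and of the 3 neighbours of EGFR, 1 rose in HepG2S3 (VOPP1, 0.75). In HCC4006ER, where EGFR itself was lower, the neighbours of EGFR could be fitted with HCC4006P1 replicate 2 alone. With the spread of the 4-library fit, SEC61G (-1.34, edgeR adjusted p = 0.00791) and VOPP1 (-1.83, adjusted p = 0.00359) fell, and LANCL2 had -0.42 (adjusted p = 0.129), where 31.9% of all genes were called.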

How the data were processed

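RNA sequencing libraries were made per the labels with a stranded mRNA kit, and the submitters' processing notes name Bowtie, TopHat, SAMtools and HTSeq with hg19. Versions are not given in the sources used here. The methods of the study also name a 3′ end kit and STAR without saying for which libraries. The authors deposited whole-number counts of reads per Ensembl gene for each library, not normalized, and reads outside genes (6.61% to 19.0%) or ambiguous between genes (3.29% to 4.07%) were left out of library totals here. Of 53515 genes, 45100 (84.3%) were matched to a GENCODE annotation of GRCh37, the build hg19, and 0 columns were left unused.

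Counts were scaled to CPM by each library's total on genes, the replicates of a line were averaged, and log2 fold changes had a pseudocount of 1 CPM. The total of HCC4006P1 replicate 1 was divided by the share of counts that the genes before its stop hold in replicate 2. Levels of different genes were compared as CPM per kilobase of the Ensembl canonical transcript. Intervals of single libraries are 95% Wilson intervals, and those of log2 fold changes combine the Wilson limits of both lines. The interval of the NRG1 ratio in IGROV-1 / CDDP is a 95% interval on the log ratio, from both counts. Where either line had more than 1 library, the SD over pairings is given for a change. A fold against a group at 0 was set against 3 counts per library. Pairings share libraries, so they are not independent, and their SD is not the full uncertainty of a change. Depth was 9851195 to 36639473 counts per library, so that 3 counts equal 0.0819 to 0.305 CPM.

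The quasi-likelihood test of edgeR 4.0.16 (R 4.3.3) was used with TMM and filterByExpr, and genes were called at an adjusted p under 0.05 (Benjamini-Hochberg, over all genes tested). HCC4006ER was compared with HCC4006P1 and HepG2S3 with HepG2, and counts summed per parental line were compared with the parental line as a block. Alternatives used DESeq2 1.42.0, other size factors, no filter, a pseudocount of 0.1 CPM, TMM library sizes, a replicate block and lines or libraries left out in turn. The fits were tested on simulated data. Python 3.11.15 with pandas 2.3.3 was used.

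The 10 genes, the pathway lists and the tests were chosen with earlier results of these data known. All 10 genes are named, with the 2 genes of each pathway list with the largest change among those called, and the 3 genes most correlated with EGFR and ERBB3 over the 17 lines among genes with a mean of at least 10 CPM. Correlations of AREG are not given because of its low counts.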

Additional observations from a re-analysis of the deposited data

Results flagged for a closer look

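AREGB, the second copy of the amphiregulin gene, is outside the 10 genes and had counts in HepG2 only. It held 40 counts in HepG2 replicate 1 and 63 counts in HepG2 replicate 2, above the 3 counts taken as the smallest detected number, and 0 counts in the other 19 libraries, HepG2S1 and HepG2S3 included. AREG itself held 1 count in each of the 2 HepG2 libraries. Since 96.6% of the 50-base stretches in the exons of AREG are also in AREGB, these counts may come from either gene, and which of them was not tested.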

How the results depend on the processing

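Numbers of called genes moved with the processing, and calls of the family were lost in some alternatives. All members tested were called as reported in the 2 pairs with replicates, so their number had little room to rise. In HCC4006ER against HCC4006P1 edgeR called 6266 genes, 3417 with all genes kept and 4046 to 8370 with 1 library left out, and 7 members in the fit as reported, 5 to 7 over the alternatives. The replicate block gave 7787 calls with 7 members, and 10561 with 9 members in HepG2S3, where 10744 genes were called without it. Libraries of the same replicate number correlated with r = 0.264 and 0.0109 in the 2 comparisons. No pairing was assumed, since the labels name no shared batch or culture and 2 pairs are too few to show one. In the fit with HCC4006P1 replicate 2 alone, DESeq2 called 6829 genes, the spread of the 4-library fit gave 5296, and keeping all genes with both replicates gave 3417 with 5 members, losing EGFR (adjusted p = 0.812) and NRG1 (0.544), since 1 library then has no counts for them. With all genes kept, AREG (0.106) and BTC (0.0654) were also lost. HepG2S3 had 7341 to 13242 calls with 1 library left out, and 7 to 10 members.

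Over 7 parental lines DESeq2 called 113 genes, and EGFR ranged from -0.62 to 0.22 with 1 line left out, above 0 without HCC4006P1 and, at 0.01, without IGROV-1. With HCC4006P1 and HCC4006P2 as 1 parental line, edgeR called 0 of 20071 genes. For the 3 lung pairs DESeq2 called 745 genes and a fit without a filter 25, and EGFR ranged from -1.28 to 0.15. For the difference in change, DESeq2 called 151 genes, no filter 1 and leaving out UWB1289 1. With 1 line left out, ERBB3 ranged from -1.71 to 0.95 and was above 0 without HCC4006P1, UWB1289 (0.39) or IGROV-1 (0.51), and NRG1 ranged from -2.35 to 0.40 and was above 0 without HepG2 (0.18) or IGROV-1. For lung against other parental lines, DESeq2 called 404 genes and 1 member, and no filter or 2 HCC4006 profiles gave 1 gene each. With a pseudocount of 0.1 CPM, 4 members passed 2-fold in HCC4006GR, 2 in HCC827GR, 4 in U10 and 4 in IGROV-1 / CDDP, where TMM gave 1. Of the members' pair values, 240 moved by less than the spread between replicates or counting error, 57 by more, and 0 of those past 2-fold changed sign. With AREG and AREGB summed, chosen after seeing the data, AREG went from 1.30 to 0.03 in HepG2S1 and from 0.32 to -0.95 in HepG2S3. The causes were not tested. Genes under about 3 counts are beyond this depth.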

Other observations

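The 2 stocks of HCC4006 differed before resistance in the ligands NRG1 and HBEGF, beside 18.1% of 15389 genes past 2-fold. HCC4006P1 also lacked the lung markers found in HCC4006P2, as given above. NRG1 had 11.4 CPM in HCC4006P1 replicate 2 and 1.47 CPM in HCC4006P2, and HBEGF had 24.3 and 28.0 CPM in HCC4006P1 against 5.36 CPM in HCC4006P2. EGFR, at 1036 and 962 CPM, ERBB2, at 121 and 96.5 against 143 CPM, and ERBB3, at 142 and 82.0 against 145 CPM, were closer, as were TGFA, at 67.3 and 94.98 against 75.1 CPM, and BTC, at 3.02 and 1.64 against 2.35 CPM. EREG was low in both, at 1.62 and 1.03 against 2.42 CPM. ERBB4 had 1 and 2 counts against 6, and AREG, which could not be measured reliably, had 13 and 31 counts against 1. EGF had 5.29 CPM in HCC4006P2 and 2.98 CPM in HCC4006GR. LRIG1 was higher in HCC4006P2 (16.8 CPM) than in HCC4006P1 (0.866 CPM), and it was lower in HCC4006GR (5.96 CPM) and higher in HCC4006ER (21.5 CPM) than in the parental stock of each. There was 1 library of HCC4006P2, so these differences were not tested.

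GRB7 was lower past 2-fold in HCC827GR (log2 fold change -1.55), PancB1Q (-2.59), PancB1V (-2.57) and U10 (-1.15), and higher in HCC4006GR (0.23) and IGROV-1 / CDDP (0.72), short of 2-fold. NRG2, a further ERBB3 and ERBB4 ligand, had 3.04 CPM in PancVB, 0.350 CPM in PancB1Q and 0.523 CPM in PancB1V. EGF had 4.65 CPM in UWB1289 and 1.27 CPM in U10.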
